A study of Mus musculus with 2 samples.

Results

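Long intergenic noncoding RNAs (lincRNAs) present in G1E cells are described here: 106 lincRNA genes of 2777 in the annotation. They were chosen by their measured level, as genes of type lincRNA in GENCODE M21 with at least 1 TPM in both libraries and an effective length of at least 200 bases. TPM is a read count divided by transcript length and scaled to a common total per library. Gas5, Zfas1, Epb41l4aos and genes with Snhg names, which are hosts of small nucleolar RNAs, were left out by name. Of 112 lincRNA genes that reached the level, 2 (Gm14133 and Gm23925) were too short and 4 (Snhg6, Snhg12, Snhg20 and Epb41l4aos) were left out by name. Another 2542 were under 1 TPM in both libraries, and the 2469 of these that met the rule on length and name serve below as low lincRNA genes for comparison. In all, 1182 lincRNA genes had 0 counts in both libraries. The levels that chose the genes are therefore a description, with no test, and support no statement about how many lincRNAs are active.

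G1E cells are an immortalised male mouse line, derived from an erythroid progenitor without functional GATA1. That transcription factor is needed for red cell maturation. The same Gata1-minus genotype applies to every sample, with no treatment, time course or wild-type control. Poly(A) RNA was sequenced from single ends in 2 libraries, labelled biological replicates 1 and 2, of a single biosample. No label says that separate cultures were used, so the spread between the libraries may be technical.

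As background, lincRNAs are transcripts from loci between protein-coding genes that are spliced and polyadenylated like messenger RNA but have no known protein product. Most are made at low levels, and many start close to the promoter of an active gene. Some, such as Malat1 and Neat1, build or occupy nuclear bodies, while others serve mainly as precursors of microRNAs. Annotation of the class also takes in copies of other genes, and reads from such copies are hard to place.

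Replicate 1 held 31645051 expected counts and replicate 2 held 56983558. Gata1 RNA was listed at 88.2 and 61.4 TPM, and this does not check the genotype, since no label gives the disrupted part of Gata1. All 8 erythroid progenitor markers passed 1 TPM in each library, from Tfrc at 48.4 TPM in replicate 1 to Gfi1b at 764 TPM there. All 3 megakaryocyte markers were as well, at 6.44 to 31.8 TPM. Of 13 markers of macrophages, T cells, B cells, fibroblasts and embryonic stem cells, 0 reached 1 TPM in both libraries, and Cd3e (1.68 TPM in replicate 1) and Adgre1 (1.18 TPM in replicate 2) reached it in a single library. In bulk RNA, fewer cells of a type and less RNA per cell cannot be told apart. Protein-coding genes held 85.7% of the TPM of matched genes in replicate 1 and 75.8% in replicate 2. The same RNA amount thus corresponds to different TPM in the libraries, and differences between them are given on counts scaled by TMM, a normalisation on the bulk of genes.

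Of the 106 lincRNA genes, 5 overlapped a microRNA gene on the same strand, and the mature microRNAs encoded there are shown because they are the known product of 2 of these loci. Capitals mark the seed, bases 2 to 8 of the mature RNA, which pairs with targets. Sequences are from RefSeq on GRCm38.p6. Mir142hg, on chromosome 11 from 87755577 to 87757270, carries the blood cell microRNA gene Mir142 in its intron:
mmu-miR-142a-5p: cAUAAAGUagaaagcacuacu
mmu-miR-142a-3p: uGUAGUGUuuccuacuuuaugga
Mir17hg, on chromosome 14 from 115042879 to 115046727, carries 6 microRNA genes of a cluster known to promote proliferation. The first pair below share the seed AAAGUGC, the second pair the seed GUGCAAA, and the last 2 have seeds of their own:
mmu-miR-17-5p: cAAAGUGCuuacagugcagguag
mmu-miR-20a-5p: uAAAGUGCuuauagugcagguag
mmu-miR-19a-3p: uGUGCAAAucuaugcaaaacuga
mmu-miR-19b-3p: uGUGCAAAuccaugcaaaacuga
mmu-miR-18a-5p: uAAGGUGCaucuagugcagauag
mmu-miR-92a-3p: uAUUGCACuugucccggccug
2900076A07Rik contains Mir1839, and Gm26532, on chromosome 8 from 84208920 to 84209609, begins inside the hairpin gene Mir24-2 with an overlap of 2 bases, downstream of both mature microRNAs, so it does not contain them:
mmu-miR-1839-5p: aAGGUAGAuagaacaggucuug
mmu-miR-24-3p: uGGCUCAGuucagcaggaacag
6030443J06Rik contains the predicted microRNA gene Gm44363.

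The RNAs of these genes differed in level. Mir142hg had 83.3 TPM in replicate 1 and 66.6 in replicate 2, a mean of 74.9 ± 11.8 (SD, n = 2), among the 10 most abundant lincRNAs in each library. Mir17hg stood at 1.28 and 9.41 TPM, a mean of 5.35 ± 5.75 (SD, n = 2), on 105 and 1486 expected counts. Replicate 2 was thus the high library for Mir17hg, and the log2 ratio of scaled counts, replicate 2 over replicate 1, was 2.91. Gm26532 was at 6.73 and 2.05 TPM, with replicate 1 the higher, and 2900076A07Rik at 2.10 and 2.65 TPM. The microRNA genes of the Mir17hg cluster themselves had at most 1.25 expected counts in either library, and Mir1839 at most 1.52. These are poly(A) libraries of RNA above a labelled size range, so they give host RNA and not mature microRNA.

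The 106 genes covered a wide range of levels, and most were low. Their median was 3.23 TPM in replicate 1 and 3.71 in replicate 2, beside 23.1 and 22.5 TPM for the 9118 expressed protein-coding genes. In both libraries 76 of them were under 10 TPM and 21 at 10 TPM or more. By mean level 46 lay under 3 TPM, 32 from 3 to 10 TPM, 22 from 10 to 100 TPM and 6 at 100 TPM or more. Summed, they came to 8960 TPM in replicate 1 and 24519 in replicate 2, or 1.02% and 3.79% of the counts of matched genes. Leaving out a single pair of genes, Gm42418 and Gm26917, brought the sums to 3981 and 1942 TPM, so the direction between the libraries turned with these 2 genes. The sum of the other 104 in turn rests on few entries of shared sequence. Gm10076 (1341 and 255 TPM), Gm26825 (854 and 435 TPM) and Gm26870 (691 and 4.74 TPM) were higher in replicate 1, and Gm28901 (3.87 and 170 TPM) in replicate 2. The median of the 104 was 3.18 TPM in replicate 1 and 3.68 in replicate 2, the opposite direction to their sum. Across the 106 genes the levels of the libraries had a Spearman correlation of 0.777 (0.764 without that pair), beside 0.916 across the expressed protein-coding genes. These are descriptions across genes, both libraries also chose the genes, and low counts enter both axes.

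**Figure D1:**
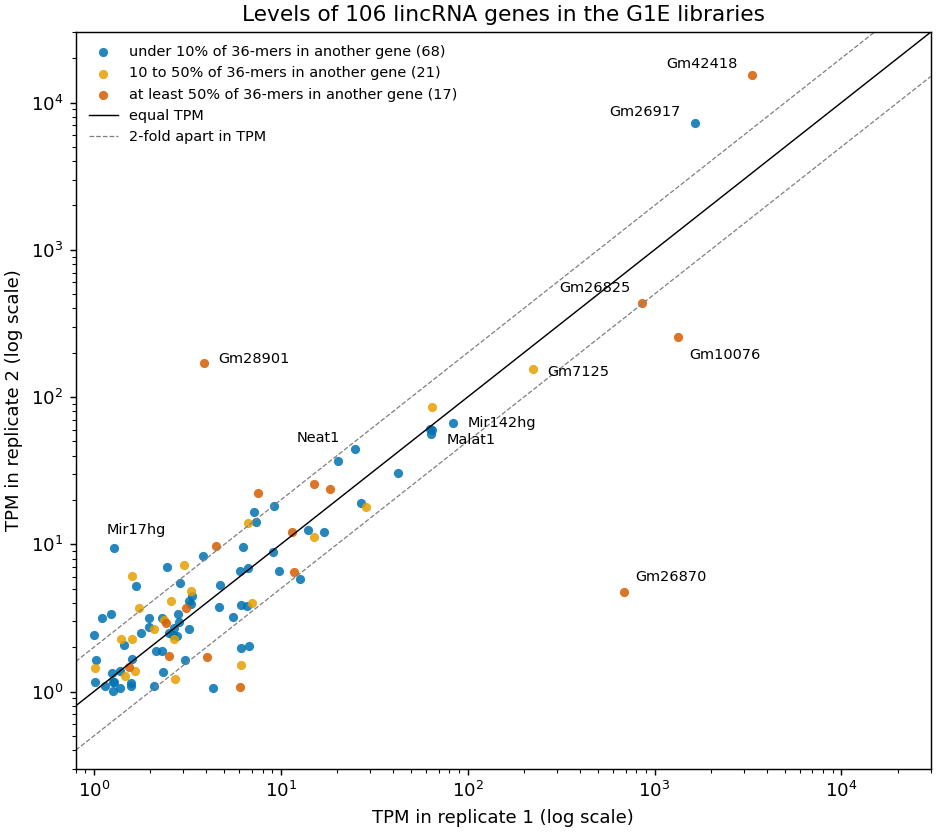
TPM of each of the 106 lincRNA genes in replicate 1 (x axis) and replicate 2 (y axis), both on log scales, coloured by the share of the gene's 36-mers that occur in another annotated gene; the solid line marks equal TPM and the dashed lines a 2-fold difference in TPM. Of the genes 79 lie within the 2-fold lines, and Gm26870 and Gm28901 lie furthest from them.

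Reads whose sequence occurs in more than 1 gene cannot be placed with certainty. The share of a gene's 36-mers that also occur in another annotated gene, on either strand, was taken as a rough measure of how ambiguous its level is. It was taken over all M21 transcripts of a gene, while the levels rest on transcripts of release M4. Effective length is transcript length less 35 bases in replicate 1 and less 54 in replicate 2. Reads of copies may thus be placed unequally well in the 2 libraries, and shares at a second length were not computed. Of the 106 genes, 68 shared under 10%, 21 from 10 to 50% and 17 at least 50%. The share of genes at 10% or more was 35.8%, near the 34.8% of lincRNA genes under 1 TPM and above the 22.5% of expressed protein-coding genes. Among the 8 most abundant, however, 7 were at 10% or more. For 26 of the 38 such genes the main partner was a gene on the opposite strand of the same locus, for 1 a gene on the same strand there, and for 11 a gene elsewhere. Strand handling is not given in the sources used here, and without it the reads of a gene and its opposite-strand partner cannot be told apart.

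**Figure D2:**
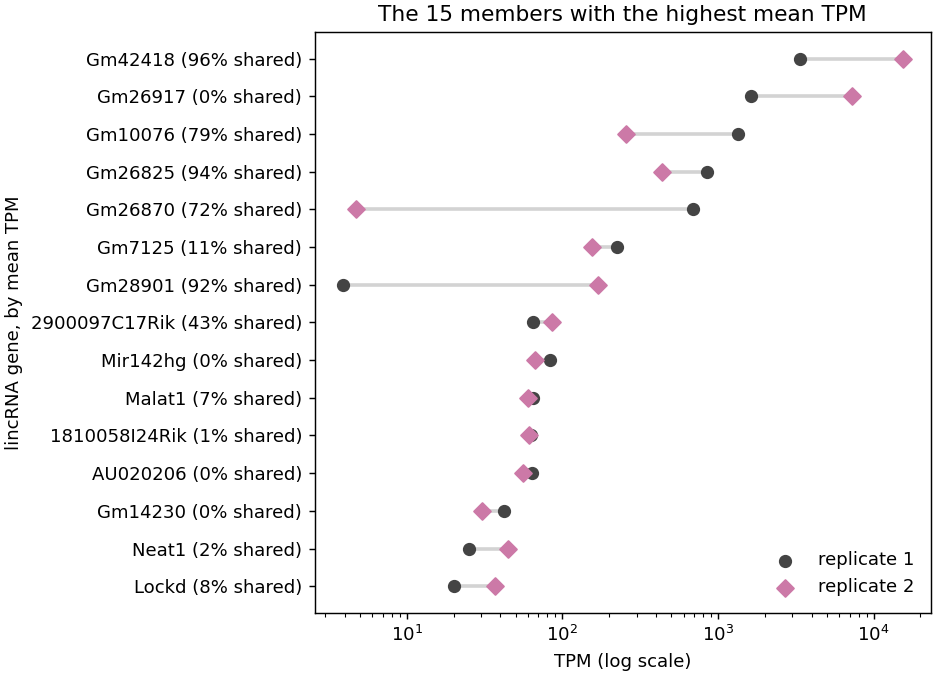
TPM in replicate 1 (circles) and replicate 2 (diamonds) of the 15 lincRNA genes of highest mean TPM, on a log axis, with the share of each gene's 36-mers found in another gene in brackets. The 2 genes at the top, Gm42418 and Gm26917, are higher in replicate 2, and Gm26870 stands at 691 TPM in replicate 1 and 4.74 in replicate 2.

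The most abundant entries were neighbours at a ribosomal RNA-like locus of chromosome 17. Gm42418, a gene of 1 exon from 39846958 to 39848788, was at 3340 TPM in replicate 1 and 15344 in replicate 2, a mean of 9342 ± 8488 (SD, n = 2). Gm26917, from 39843013 to 39846341 on the same strand, was at 1638 and 7233 TPM, a mean of 4436 ± 3956 (SD, n = 2). Both were higher in replicate 2, with log2 ratios of 2.24 and 2.34 on scaled counts, and together they held 55.6% of the lincRNA TPM in replicate 1 and 92.1% in replicate 2. GENCODE M21 annotates the ribosomal RNA gene CT010467.1 on the opposite strand from 39846353 to 39848827, and 95.8% of the 36-mers of Gm42418 occur in it. RefSeq lists the pseudogene Rn18s-rs5 there, from 39846354 to 39848202. CT010467.1 had no entry in the deposited gene levels, so no reads were assigned to it. Gm26917 shared 0% of its 36-mers with any annotated gene. Sequence that M21 does not annotate as a gene does not enter this share. Mature ribosomal RNA is not polyadenylated, as background. What part ribosomal RNA reads play in these levels was not tested.

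Other abundant entries shared sequence with expressed protein-coding genes, to unequal extents. Gm10076, on chromosome 14 from 105681828 to 105682211, was at 1341 TPM in replicate 1 and 255 in replicate 2, and shared 79.1% of its 36-mers with Rpl41, a ribosomal protein gene at 9074 and 11259 TPM. RefSeq classes it as a pseudogene, and its direction, higher in replicate 1, was not that of Rpl41. Gm10180 and Gm3699, pseudogenes with 12.3% and 11.5% of its 36-mers, went the other way, each at 0 TPM in replicate 1 and 152 in replicate 2. Gm10736, also with 12.3%, was at 0 TPM in both. Gm26825, on chromosome 5, was at 854 and 435 TPM and shared 85.4% with Hspa8, the constitutive heat shock protein gene at 3493 and 2718 TPM, and 91.4% with the pseudogene Gm15459. Gm7125, on chromosome 15, was at 224 and 155 TPM, a mean of 190 ± 49.0 (SD, n = 2). Its level rests on 1 tabulated transcript of 273 bases, but its share was taken over 1452 36-mers of all its M21 transcripts. On that basis 11.2% were shared in all, and the share within the 273 bases, which may be larger, was not computed. Its main partner held 6.82%. That partner is Hmgn2 (285 and 88.7 TPM), which encodes a nucleosome-binding protein. RefSeq calls Gm7125 a pseudogene as well.

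The 2 lincRNA genes furthest apart between the libraries also belonged to repeated sequences. Gm26870, on chromosome 9 from 3000282 to 3038313, was at 691 TPM in replicate 1 and 4.74 in replicate 2, a log2 ratio of -7.15. Its leading partners Gm10719 (804 and 2.36 TPM) and Gm10717 (1017 and 3.79 TPM), with which it shared 42.5% and 39.5% of its 36-mers, were apart in the same direction. Gm28901, on chromosome 1, was at 3.87 and 170 TPM, a log2 ratio of 5.42, and shared 87.9% of its 36-mers with Hnrnpf, an RNA-binding protein gene at 579 and 554 TPM. Among pseudogenes that share its sequence, Gm12435 (80.6%) went the other way, at 350 and 83.3 TPM. Gm6430 (84.7%) was at 1.30 and 2.58 TPM. In replicate 1 the deposited credibility interval of Gm28901 ran from 0.0022 to 10.5 TPM, so its low value there is poorly determined. In replicate 2 the interval was 149 to 177 TPM.

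Among nuclear and housekeeping noncoding RNAs, 9 of the 12 listed symbols were matched, some of them second names of the same RNA, and 5 belong to the 106. Malat1, an abundant RNA of nuclear speckles, was at 64.3 TPM in replicate 1 and 60.0 in replicate 2, a mean of 62.1 ± 2.98 (SD, n = 2). Its scaled counts were nevertheless 2.06-fold higher in replicate 2. The transcript tables show where these measures part: the long transcript of 6983 bases took 21.4% of the gene's TPM in replicate 1 and 57.0% in replicate 2, and a short one of 656 bases took 77.7% and 33.0%. Malat1 was the 1 gene of the 106 whose TPM and counts pointed opposite ways with counts at least 1.5-fold apart.

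Neat1, the scaffold RNA of paraspeckles, was at 25.0 TPM in replicate 1 and 44.6 in replicate 2, a mean of 34.8 ± 13.9 (SD, n = 2). Its short form of 3004 bases carried 85.3% and 89.9% of that level, and the long form of 20771 bases, the one known to be needed for paraspeckles, 3.60% and 3.51%. In expected counts the long form held 435 and 1471, and the short form 1476 and 5357. The forms share sequence, so the division is an estimate. It describes poly(A) RNA only, and the ratio of the forms in total RNA was not measured. Of genes that encode RNA-binding proteins of paraspeckles, Nono was at 761 and 415 TPM, Sfpq at 134 and 177 TPM and Pspc1 at 13.6 and 20.8 TPM.

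2900097C17Rik, named Norad in RefSeq, is a cytoplasmic RNA known for its part in genome stability. It was at 64.3 and 85.8 TPM, a mean of 75.1 ± 15.3 (SD, n = 2). A copy on chromosome 6, the lincRNA gene Gm7292, held 42.7% of its 36-mers and was listed at 15.1 and 25.9 TPM. Pum2, which encodes an RNA-binding protein known to bind it, was at 70.5 and 48.9 TPM. 1700020I14Rik, named Oip5os1 in RefSeq and also known as Cyrano, was at 9.17 and 18.3 TPM and shared 0.82% of its 36-mers. Pvt1, the neighbour of the Myc oncogene, was at 2.32 and 3.17 TPM, far under Myc at 531 and 281 TPM. Of the other matched genes on this list, Tug1 (7.35 and 24.5 TPM, type antisense) and Firre (9.73 and 18.7 TPM, processed transcript) are of another annotated type, and Kcnq1ot1 and Miat were under 1 TPM in both libraries.

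On the list of noncoding RNAs of blood cells, 16 of 18 genes were matched and 6 belong to the 106. Besides Gm42418 and Gm26917, which that list also held, these were Mir142hg, Lockd, Mir17hg and Trp53cor1. Lockd, transcribed downstream of the cell cycle inhibitor gene Cdkn1b and studied in erythroid cells, was at 20.2 TPM in replicate 1 and 36.8 in replicate 2, a mean of 28.5 ± 11.7 (SD, n = 2). Cdkn1b, whose start lies 8691 bases from that of Lockd, was at 13.0 and 12.4 TPM, so the noncoding RNA was the higher of the pair in each library. A transcript of 441 bases held 96.5% and 98.3% of the Lockd level. Trp53cor1, also called lincRNA-p21 and known as a p53 target, was at 1.66 and 1.39 TPM, beside 163 and 117 TPM for its nearest gene, the p53 target Cdkn1a.

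Several known blood cell RNAs were low or are annotated as another type. Ttc39aos1, of type antisense, was at 65.6 and 46.0 TPM, and Dleu2, a processed transcript, at 3.38 and 7.49 TPM. Bvht, Mir155hg, AW112010 and Lncpint were under 1 TPM in both libraries. Gm14005 was at 3.51 TPM on 33 counts in replicate 1 and had 0 counts in replicate 2, where 3 counts would give 0.139 TPM. Replicate 1 held more such genes: 98 lincRNA genes reached 1 TPM there alone and 25 in replicate 2 alone. The same count was not made over all genes, so these numbers cannot be read as particular to lincRNAs. No lincRNA of the X inactivation, imprinted or developmental lists reached 1 TPM in both libraries: Xist was at 0.63 and 0.47 TPM, Ftx at 0.64 and 0.71 TPM, Meg3 at 1.5 and 0.020 TPM, and Hotair at 0.81 and 0.050 TPM. Of these lists' genes of other types, Tsix, Airn and Nespas were at 1 TPM or more in both.

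For the remaining lincRNAs of high level no role is stated here. AU020206, on chromosome 7 from 75769038 to 75782099, was at 64.1 and 56.2 TPM, a mean of 60.1 ± 5.58 (SD, n = 2), and shared 0% of its 36-mers. 1810058I24Rik, on chromosome 6, which RefSeq classes as protein-coding, was at 63.0 and 60.7 TPM, a mean of 61.8 ± 1.68 (SD, n = 2). Gm14230, on chromosome 2, was at 42.3 and 30.6 TPM. Of the 15 most abundant genes, these 3 with Malat1 and Mir142hg were those with under 10% shared 36-mers and TPM within 1.5-fold between the libraries. The other 91 genes, after the 15 of highest mean, had means from 1.09 to 23.3 TPM.

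RefSeq held an entry for 63 of the 106 genes, which it classed as long noncoding RNA for 54, as a pseudogene for 4 and as protein-coding for 5. Those 5 were 1810058I24Rik, Tmem250-ps at 28.8 and 17.9 TPM, Lsmem2 at 9.74 and 6.58 TPM, D930016D06Rik (Thoc2l in RefSeq) at 2.82 and 3.37 TPM and Gm6712 at 1.75 and 3.68 TPM. The label noncoding thus comes from GENCODE and is not shared by RefSeq for these genes. In the 92 genes whose leading transcript, the one with the highest mean share of the gene's TPM, had an M21 sequence of the tabulated length, 23 (25.0%) held a reading frame of at least 100 codons from ATG to a stop. This compares with 13.8% of 2347 lincRNA genes under 1 TPM. The median length of the leading transcript was 1186 and 835 bases in these sets, and longer sequences hold longer frames.

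Between the libraries, 28 of the 105 lincRNA genes with at least 50 counts were 2-fold or more apart on scaled counts, or 26.7%. Over all 12330 genes with at least 50 counts 29.4% were 2-fold apart, and over the 9110 expressed protein-coding genes 19.1% were. Of the 28 lincRNA genes, 18 were higher in replicate 2 and 10 in replicate 1. The corresponding shares were 16.3% and 13.1% of all genes, and 13.3% and 5.84% of expressed protein-coding genes. The lincRNA share thus lies near that of all genes. Their median log2 ratio was 0.075, beside 0.019 over all genes and 0.049 over expressed protein-coding genes. With 1 library against 1 there is no test of any of these differences.

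The split between directions depends on the scaling. DESeq2 size factors, and likewise TMM factors computed without a filter on low genes, put the median log2 ratio of all genes at 0.27 and gave 23 lincRNA genes higher in replicate 2 and 7 higher in replicate 1. Subtracting a trend on GC content gave 14 and 12 and a median of -0.084. Of all genes, 32.2% were 2-fold apart with DESeq2 size factors, 32.4% with the unfiltered TMM factors and 22.9% with the GC trend subtracted. Among the 68 genes with under 10% shared 36-mers, 67 had 50 counts and 15 of them (22.4%) were 2-fold apart, 11 higher in replicate 2. Among the other 38 genes 13 (34.2%) were.

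**Figure D3:**
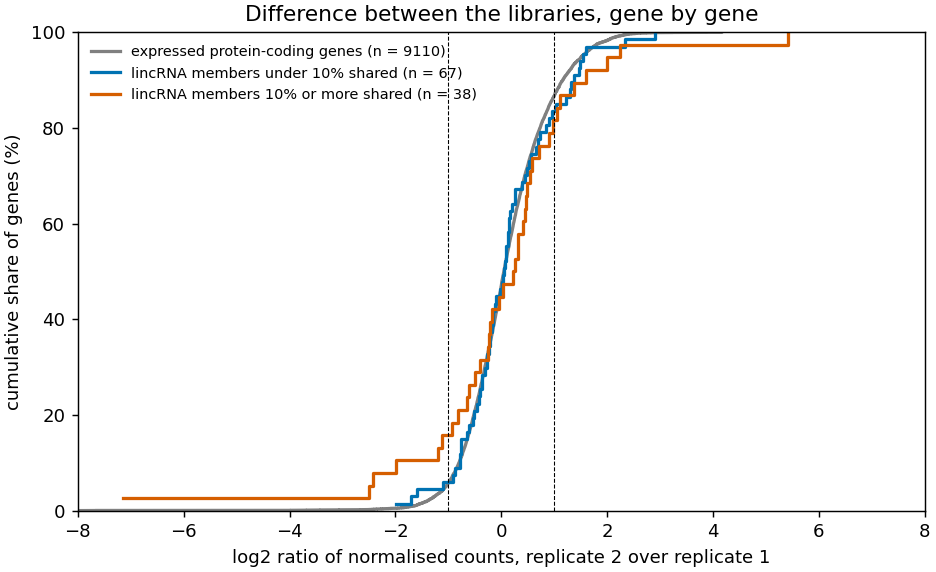
Cumulative share of genes (y axis, percent) by the log2 ratio of scaled counts, replicate 2 over replicate 1 (x axis), for expressed protein-coding genes and for lincRNA genes with under 10% and with 10% or more of their 36-mers in another gene; dashed lines mark 2-fold. Of the 67 genes with little shared sequence 22.4% lie beyond the dashed lines, beside 19.1% of the 9110 protein-coding genes, and the curve of the 38 others reaches from -7.15 to 5.42.

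Higher in replicate 1, after Gm26870, were 1810012K08Rik (6.03 and 1.07 TPM, log2 ratio -2.49), Gm10076 (-2.42), Gm26765 (6.14 and 1.52 TPM, -1.99) and 2810455O05Rik (4.32 and 1.06 TPM, -1.98). Of these only 2810455O05Rik had under 10% of its 36-mers in another gene. 1810012K08Rik lies opposite Tmem250-ps, which holds most of its shared sequence and was the more abundant of the pair in both libraries. Higher in replicate 2, after Gm28901, were Mir17hg, Gm26917, Gm42418 and BC002059 (1.60 and 6.14 TPM, log2 ratio 1.99). Mir17hg, at 9.31% shared, is the 1 of these 5 with a known product. All 10 of these genes were also 2-fold apart, in the same direction, with DESeq2 size factors.

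The chromosomal surroundings were not part of the rule that chose the genes, but they are not independent of it. Without strand, reads of an expressed gene on the opposite strand may count toward the level of an overlapping lincRNA. The nearest protein-coding gene, by distance between starts, itself passed 1 TPM in each library for 74 of 106 lincRNA genes (69.8%). The share was 29.5% for the 2469 lincRNA genes under 1 TPM in both libraries, and 65.2% for the nearest coding neighbour of an expressed protein-coding gene. The median distance to that start was 13138 bases for the 106 genes, 68845 bases for the low lincRNA genes and 16450 bases for expressed protein-coding genes. The nearest gene had the higher mean TPM in 66 of 106 cases, with a median of 11.7 TPM. Across the 106 pairs the levels of lincRNA and neighbour had a Spearman correlation of -0.088, a description. For the other 32 genes the nearest coding gene was under 1 TPM in both libraries (25 genes) or in 1 of them (7). The 32 include Gm42418, Gm26917, Gm10076, Gm26825, Gm26870, Gm7125 and Gm28901, the 7 most abundant. The neighbour of Gm26870, Gm10715, was at 62.1 and 0.25 TPM and holds 31.8% of its 36-mers. On counts with at least 50 per gene, 11 of the 25, 5 of the 7 and 12 of the other 73 genes were 2-fold apart between the libraries, where 29.4% of all genes were. The 7 were placed by a difference between the libraries in the neighbour, so their count is only a description.

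**Figure D4:**
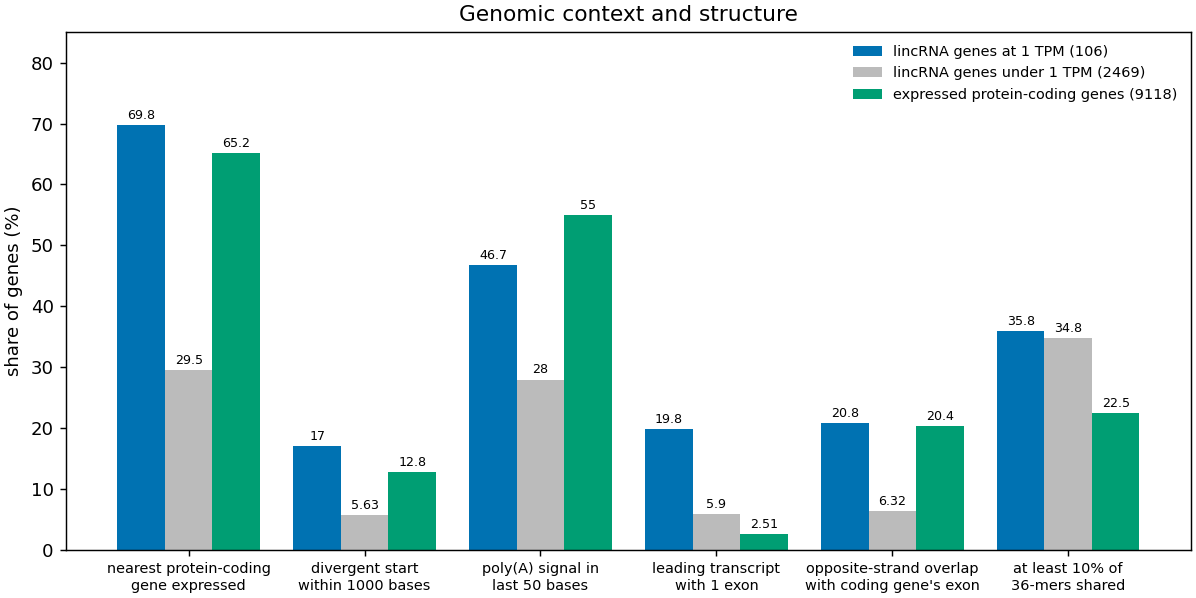
Share of genes (y axis, percent) with each of 6 features, for the 106 lincRNA genes, lincRNA genes under 1 TPM in both libraries and expressed protein-coding genes; the poly(A) signal was counted over genes with a matched transcript sequence. Bars of the 106 genes lie closer to those of expressed protein-coding genes for the nearest gene (69.8% and 65.2%), the divergent start and the opposite-strand overlap, and above both sets for transcripts of 1 exon (19.8%).

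A divergent arrangement, with a protein-coding gene starting on the opposite strand within 1000 bases upstream, was found for 18 of the 106 genes (16.98%), against 5.63% of low lincRNA genes and 12.8% of expressed protein-coding genes. All 18 partners were expressed, and 17 had a higher mean than the lincRNA, 15 of them in both libraries. The starts lay 3 to 709 bases apart, with a median of 208. The partner exceeded the lincRNA by a median of 4.33-fold, from 0.659-fold to 37.1-fold. Of the 18, 1 (5.56%) was 2-fold apart between the libraries, 4930509E16Rik. Among genes with at least 50 counts, 29.4% of all genes and 19.1% of expressed protein-coding genes were. With 18 genes the difference is only a description.

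Of the 18 lincRNAs Gm14230 was the most abundant, at 42.3 and 30.6 TPM beside Tgif2, a homeobox repressor gene at 60.0 and 26.7 TPM, 115 bases away. AI480526 was at 18.4 and 23.9 TPM beside Setd1b, a histone methyltransferase gene at 49.7 and 20.3 TPM. In both pairs the coding gene was the higher in replicate 1 and the lincRNA the higher in replicate 2. 2010320M18Rik, at 7.38 and 14.2 TPM, paired with Pik3r2, a subunit gene of phosphoinositide 3-kinase at 54.3 and 30.9 TPM. C030037D09Rik, at 5.59 and 3.20 TPM, paired with Msi2, which encodes an RNA-binding protein of blood stem cells, at 39.1 and 21.3 TPM.

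Gm17586, at 2.84 and 2.97 TPM, lay 168 bases from Mafg, which encodes a small MAF partner of the erythroid factor NF-E2, at 26.7 and 31.2 TPM. Fam120aos showed the widest gap, at 3.34 and 4.45 TPM beside 169 and 120 TPM for Fam120a. In 5033430I15Rik, at 6.10 and 3.90 TPM, the lincRNA exceeded its partner Atxn1 (3.68 and 2.91 TPM) in both libraries, the 1 pair of the 18 in which it did. The log2 ratio between the libraries had the same sign for lincRNA and partner in 10 of the 18 pairs.

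**Figure D5:**
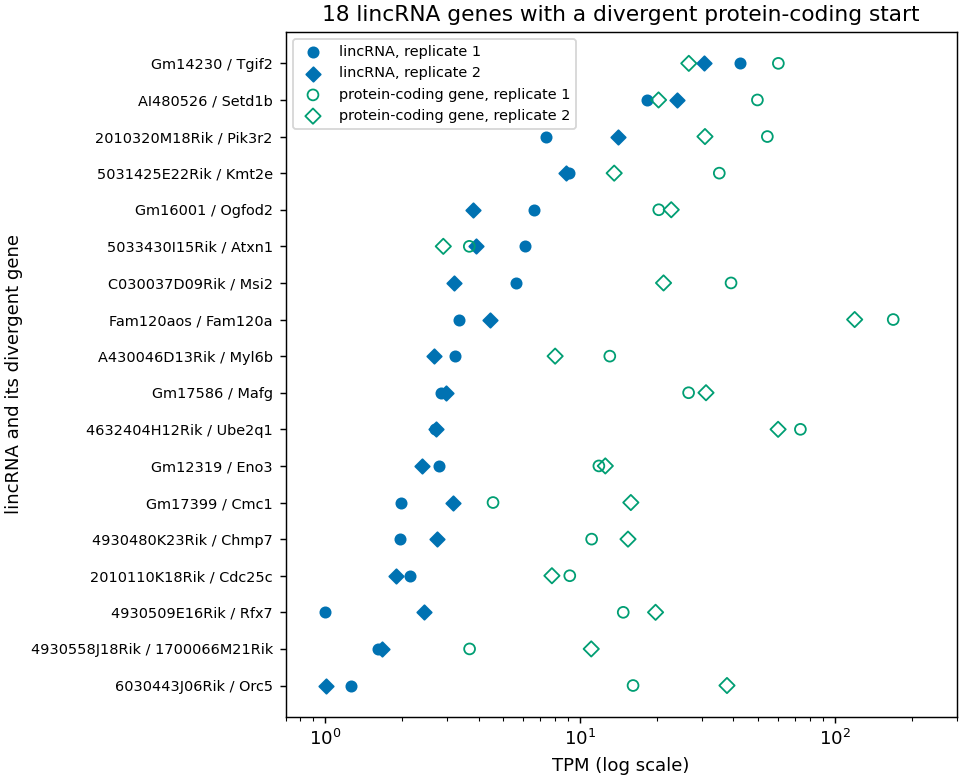
TPM on a log axis of 18 lincRNA genes (filled) and of the protein-coding gene that starts on the opposite strand within 1000 bases (open), in replicate 1 (circles) and replicate 2 (diamonds), ordered by the mean of the lincRNA. In 15 pairs both open symbols lie to the right of the filled symbol of the same library.

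Some of the 106 genes overlap each other or coding exons. Without strand, such overlaps are not independent of the level that chose the genes. An exon lay over a protein-coding exon on the opposite strand in 22 genes (20.8%), against 6.32% of low lincRNA genes and 20.4% of expressed protein-coding genes. Examples are Gm17300, at 7.53 and 22.3 TPM, which lies opposite Rcc1 and the snoRNA host Snhg3 (21.3 and 153 TPM), and Gm5914, at 4.52 and 9.79 TPM, which lies opposite Ctcf. In the first of these the lincRNA and Snhg3 were both higher in replicate 2, and without strand the reads of this pair cannot be told apart. By gene bounds, 5 pairs of the 106 genes overlap each other. AI480526 with Gm38102 (3.13 and 3.68 TPM), Tmem250-ps with 1810012K08Rik and Lsmem2 with Gm38150 (4.72 and 5.32 TPM) lie on opposite strands. E130018N17Rik with Gm14235 and Ino80dos with Gm20342 lie on the same strand.

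In structure, the leading transcripts had a median of 2 exons, beside 3 for low lincRNA genes and 8 for expressed protein-coding genes. A single exon was annotated for 21 (19.8%), against 5.90% and 2.51%. The single-exon genes had a median of 6.02 TPM in replicate 1 and 6.14 in replicate 2, and the 85 genes with more exons 2.84 and 3.18 TPM. More than 1 transcript was tabulated for 41 genes, and in 27 of these the same transcript led in both libraries. Over all 106 genes, counting those with 1 transcript, the leader was the same in 92. Malat1, Pvt1, Gm7292, Ino80dos and 4933404O12Rik are among the 14 in which it was not.

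The libraries were made from poly(A) RNA, so the ends of the leading transcripts were searched for the poly(A) signal AATAAA, the usual hexamer upstream of the cleavage site. It stood in the last 50 bases of 43 of 92 sequences (46.7%), against 28.0% of low lincRNA genes and 55.0% of expressed protein-coding genes. Allowing ATTAAA as well gave 49 of 92. Ends of 7 transcripts are shown from GENCODE M21 (GRCm38), 5′ to 3′ in transcript orientation, with AATAAA in capitals. The first 4 are lincRNAs with the signal and mostly their own sequence, the fifth is the Rpl41-like gene, whose end also carries it, and the last 2 are abundant entries without it:
Malat1: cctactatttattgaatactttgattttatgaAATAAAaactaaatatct
Neat1: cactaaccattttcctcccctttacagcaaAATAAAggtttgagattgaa
Mir142hg: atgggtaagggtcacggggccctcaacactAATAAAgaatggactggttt
Mir17hg: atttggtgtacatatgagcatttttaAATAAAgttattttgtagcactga
Gm10076: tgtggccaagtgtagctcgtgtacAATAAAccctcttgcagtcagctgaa
Gm42418: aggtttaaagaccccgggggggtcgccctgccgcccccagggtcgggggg
Gm26825: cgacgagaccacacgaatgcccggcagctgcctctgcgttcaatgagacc
Genes with the signal had medians of 2.71 and 3.17 TPM and those without it 3.34 and 4.02 TPM, so the median was lower with the hexamer in each library. The Malat1 end shown is that of its short transcript of 656 bases, with 77.7% of the gene's TPM in replicate 1 and 33.0% in replicate 2. The long Malat1 transcript held more expected counts in both libraries, and its end is not shown. A missing hexamer says only that these letters are not in that window, and an annotated end need not be the end used in these cells.

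A promoter window from RefSeq, 250 bases before to 50 after the start (GRCm38.p6), was matched for 44 of the 106 genes. The ratio of observed to expected CpG dinucleotides in the window had a median of 0.772, beside 0.249 for 870 low lincRNA genes and 0.383 for all 32817 windows of the table. A ratio of at least 0.6, as in CpG islands, was present in 65.9%, 14.5% and 35.8%, in the same order. Because windows exist only for genes with a RefSeq entry, the 44 are not a sample of all 106.

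GATA factors bind the motif AGATAA or TGATAA, and Gata2, a GATA factor of progenitors, was at 626 and 326 TPM. Searched on both strands, the motif was present in 5 of 44 windows (11.4%), against 22.0% of the windows of low lincRNA genes and 18.6% of all windows. The motif GATAAG, which overlaps it, was in 0 of 44, against 7.45% of all. These sets of windows differ in CpG ratio (medians 0.772, 0.249 and 0.383) and were not matched on base composition. Whether the lower share goes with composition was not tested. The 5 windows with AGATAA or TGATAA were those of Gm14230, Gm10451, 3300005D01Rik, Gm28876 and F730311O21Rik. In 37 of the 44 the RefSeq start lay within 1000 bases of the start of the leading M21 transcript, and 3 of these 37 windows (8.11%) held the motif, against 22.1% of 689 such windows of low lincRNA genes. The windows of Gm14230 and Gm28876 lay 1731 and 1444 bases from it. Those of Malat1, Mir17hg, BC002059, D230017M19Rik and Gm16973 were also beyond 1000 bases. The windows of Gm10451, 63 bases away, and of 3300005D01Rik, at the same start and the 1 with 2 matches, are shown with the motif in capitals; a match is a description and not a binding site.
Gm10451, chr12:76444247-76444546, plus strand: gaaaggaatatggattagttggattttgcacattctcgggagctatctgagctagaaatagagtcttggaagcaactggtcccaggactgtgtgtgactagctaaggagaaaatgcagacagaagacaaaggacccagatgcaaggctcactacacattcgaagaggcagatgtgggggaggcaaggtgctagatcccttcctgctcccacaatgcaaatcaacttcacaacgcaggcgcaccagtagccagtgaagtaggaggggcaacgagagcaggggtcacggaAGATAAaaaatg
3300005D01Rik, chr17:5798407-5798706, plus strand: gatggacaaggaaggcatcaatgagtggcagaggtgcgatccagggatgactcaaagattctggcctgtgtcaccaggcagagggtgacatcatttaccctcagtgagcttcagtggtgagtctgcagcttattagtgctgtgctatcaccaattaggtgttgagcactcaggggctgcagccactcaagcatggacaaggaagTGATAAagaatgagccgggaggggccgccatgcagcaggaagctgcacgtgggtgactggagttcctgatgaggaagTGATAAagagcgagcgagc
3300005D01Rik was at 6.66 TPM in replicate 1 and 6.89 in replicate 2. Gm10451 was at 6.27 and 9.66 TPM, Gm28876 at 1.28 and 1.16 TPM and F730311O21Rik at 1.15 and 1.10 TPM.

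The level of 1 TPM that chose the genes falls in a dense part of the range. Just inside it were 4930509E16Rik at 1.00 and 2.44 TPM on 27 and 126 counts, Gm27010 at 1.01 and 1.44 TPM and Gm12063 at 1.01 and 1.17 TPM on 16 and 35 counts. Just outside were 4732487G21Rik at 0.99 and 3.27 TPM, Gm26619 at 3.54 and 0.93 TPM and Gm15290 at 2.84 and 0.93 TPM. In 41 of the 106 genes the lower library was under 2 TPM, and in 21 the deposited lower credibility bound was under 1 TPM in at least 1 library. The credibility intervals of the libraries overlapped for 46 of the 106 genes. These intervals cover the placing and counting of reads in a library, and not variation between cultures.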

How the data were processed

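Poly(A) RNA-seq of G1E cells was analysed in 2 libraries of 1 group. Per the file headers and the deposited notes, the authors quantified each library separately on mm10 with gene annotation release M4; for aligner, version and strand setting: not given in the sources used here. Deposited expected counts are estimated reads per gene or transcript, without normalisation. The deposited TPM divides counts by effective length, which is transcript length less 35 bases in replicate 1 and less 54 in replicate 2, and scales to a total per library that includes short RNA and spike-in entries. The deposited signal columns are a posterior mean of TPM and credibility bounds of unstated level. The deposited percent column gives each transcript's share of its gene's TPM. Entries naming no gene held 0.0363% and 0.00942% of counts and stayed out of library sizes.

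Gene identifiers without version were matched to GENCODE M21 (42462 of 43346 matched). The members, lists and thresholds were chosen with earlier results of these data known. Expected counts were rounded, and log2 ratios used TMM factors (edgeR 4.0.16, R 4.3.3; 0.980 and 1.02) from 12457 genes that passed its default filter, an offset of 0.5 on every count, and a minimum of 50 counts per gene over both libraries. The ratio step was tested on simulated data. Shared sequence, signals, reading frames and neighbours came from GENCODE M21 with Python 3.11.15 and bedtools 2.31.1, RefSeq entries from the GRCm38.p6 tables. Alternatives used DESeq2 1.42.0 and statsmodels 0.14.6. No second condition exists, so no test was run. Values are per library or mean ± SD.

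The text names the 15 genes of highest mean TPM, the 5 furthest apart in each direction, 3 on either side of the level threshold, the lists of nuclear, X inactivation, imprinted, blood, developmental, partner (some genes not reported here) and marker genes, genes with a RefSeq protein, and genes overlapping a microRNA gene. Divergent pairs, overlapping genes and genes named as examples of a count were chosen after their values were seen. Counting error is larger for low genes: 1 lincRNA gene of the 106 had under 50 counts over both libraries.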

Additional observations from a re-analysis of the deposited data

How the results depend on the processing

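Of 65 values recomputed under other settings for 12 results, 48 stayed within the margins used and 17 moved further. The margins were 1.5 times for counts of genes, 1 SD between libraries for levels, 0.1 for a correlation and 0.549 for the median log2 ratio. Over the same genes each of 2 libraries lies within 1 SD of their mean. Single-library sums and top shares were thus nearly bound to stay within it. The margin of 0.549 is wide beside a median of 0.075, so the number 48 is no measure of stability. The median log2 ratio of the lincRNA genes, 0.075, was -0.084 with the GC trend subtracted, a change of sign within the margin, and the sum was higher in replicate 2 with Gm42418 and Gm26917 (8960 and 24519 TPM) and lower without them (3981 and 1942 TPM). The median level without them was 3.18 TPM in replicate 1 and 3.68 in replicate 2. The number of genes passing the rule was 166 at 0.5 TPM, 65 at 2 TPM and 68 with under 10% of 36-mers shared, and 130 without replicate 1 and 201 without replicate 2. The median level, 3.47 TPM as the mean of the libraries' medians, was 2.03 TPM at 0.5 TPM, 6.83 TPM at 2 TPM and 3.12 TPM with under 10% shared, and 2.84 and 2.00 TPM on a single library (without replicate 1 and without replicate 2). The summed level, 16739 TPM, was 5061 TPM with under 10% shared and 2961 TPM without Gm42418 and Gm26917. Most of the 5061 TPM was Gm26917, which counts as 0% shared and had a mean of 4436 TPM. On single libraries the sum was 24559 and 9135 TPM and the share of the top 3 genes 93.7% and 69.2%; that share was 54.2% without Gm42418 and Gm26917, against 81.8%. The count of 2-fold genes, 28, was 18 of 76 with at least 200 counts and 15 of 67 with under 10% shared. Of all genes, 22.9% were 2-fold apart with at least 200 counts and 29.4% with at least 50. The GATA motif gave 5 windows, GATAAG 0 and windows within 1000 bases of the leading start 3, and the same leading transcript was found in 92 genes or in 27 of the 41 with 2 or more transcripts. Alternatives on shared sequence or on the chromosome 17 pair for sum, median, top share and correlation, the unfiltered TMM factors and the distance of the promoter window were added after the data were seen. The promoter window starting 1000 bases upstream was not run. No paired analysis was possible because there is 1 group. Depth limits the low genes: 41 lay under 2 TPM in their lower library.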
